A study of Homo sapiens with 12 samples.

Results

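The comparison sets 2 RNA-seq libraries of cells treated with THZ1 at 200 nM for 6 h against 2 libraries treated with THZ1 at 50 nM for 6 h. These are 4 of the 12 libraries of the series, chosen by the dose, time and cell line in the labels. One library of each dose comes from KYSE510 and one from TE7, so the doses are compared within each line. Both are established human lines of esophageal squamous cell carcinoma. Per the labels, the medium was RPMI-1640 for KYSE510 and DMEM for TE7. The other libraries are DMSO and 50 nM at 2, 4 and 12 h in each line. DMSO is the labelled control, and its libraries are titled 0 h while their time label says 12 h. The comparison asks what the higher dose does to transcript levels at a matched time. There is 1 library per line and dose, so n = 2 throughout, and the p-values reflect only how far these libraries and the lines vary, which may be technical.

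THZ1 binds the kinase CDK7 covalently, and at higher doses also CDK12 and CDK13. CDK7 works with cyclin H and MAT1 in the general factor TFIIH, where it phosphorylates the tail of RNA polymerase II as the polymerase leaves the promoter. It also activates the cell-cycle kinases CDK1 and CDK2. CDK9 with cyclin T releases paused polymerase, and CDK12 and CDK13 with cyclin K support elongation and the processing of long genes. Messenger RNAs with short half-lives are usually the first to be lost when transcription is blocked.

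Promoters of 5 genes that the results below turn on are printed, because these genes span the roles that the comparison touches. GTF2B, KPNA2, NOP16 and POLR2A were lower at 200 nM, and EME2 was higher. Each is the 250 bases before the RefSeq start on GRCh38.p14, written 5′ to 3′. Capitals mark the motifs searched on both strands, which are described after the gene groups.
GTF2B, chr1:88891568-88891817, minus strand: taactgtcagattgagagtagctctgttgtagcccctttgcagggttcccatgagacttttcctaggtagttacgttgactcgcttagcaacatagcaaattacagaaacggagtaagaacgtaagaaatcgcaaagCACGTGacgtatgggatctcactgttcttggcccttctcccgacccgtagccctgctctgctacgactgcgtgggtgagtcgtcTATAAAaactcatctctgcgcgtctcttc
KPNA2, chr17:68035485-68035734, plus strand: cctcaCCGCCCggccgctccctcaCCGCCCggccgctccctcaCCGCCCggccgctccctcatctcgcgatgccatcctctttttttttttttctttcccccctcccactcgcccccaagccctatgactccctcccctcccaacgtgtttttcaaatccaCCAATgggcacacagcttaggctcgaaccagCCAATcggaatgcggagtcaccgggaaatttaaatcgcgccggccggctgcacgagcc
NOP16, chr5:176388599-176388848, minus strand: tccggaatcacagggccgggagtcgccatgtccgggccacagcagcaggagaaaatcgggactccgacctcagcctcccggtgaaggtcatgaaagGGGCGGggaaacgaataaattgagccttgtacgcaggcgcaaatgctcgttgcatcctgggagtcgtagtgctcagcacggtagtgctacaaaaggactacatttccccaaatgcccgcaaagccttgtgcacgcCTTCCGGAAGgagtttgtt
POLR2A, chr17:7484116-7484365, plus strand: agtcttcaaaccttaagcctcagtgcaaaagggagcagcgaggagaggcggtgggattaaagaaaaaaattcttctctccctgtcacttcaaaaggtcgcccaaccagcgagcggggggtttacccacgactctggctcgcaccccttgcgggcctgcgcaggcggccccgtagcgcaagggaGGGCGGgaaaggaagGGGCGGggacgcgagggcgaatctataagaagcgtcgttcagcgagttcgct
EME2, chr16:1772560-1772809, plus strand: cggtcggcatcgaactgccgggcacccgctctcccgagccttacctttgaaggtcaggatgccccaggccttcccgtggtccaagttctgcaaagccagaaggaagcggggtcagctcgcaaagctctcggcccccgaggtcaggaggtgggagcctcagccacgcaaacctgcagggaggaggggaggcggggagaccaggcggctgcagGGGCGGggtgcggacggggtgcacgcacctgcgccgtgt
GTF2B encodes TFIIB, which places polymerase at the start site, and its window holds TATAAA and CACGTG. KPNA2 encodes an importin alpha that carries proteins into the nucleus, and its window holds 3 matches of GGGCGG and 2 of CCAAT. NOP16 encodes a nucleolar protein of ribosome assembly (1 GGGCGG and 2 overlapping matches of CCGGAAG, one on each strand). POLR2A encodes the largest subunit of RNA polymerase II (2 GGGCGG). EME2 encodes a partner of the DNA structure nuclease MUS81 (1 GGGCGG).

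Several libraries stand apart or go against their labels, and every result below rests on them. In the library labelled KYSE510 200 nM, 54 genes lay under 0.3 FPKM that stood at or above 8 FPKM in all 4 KYSE510 libraries at 50 nM, and 49 of them are protein-coding. Of the 54, 24 were also under 0.3 FPKM in the KYSE510 DMSO library. Another 35 genes did the opposite, and 5 of them were also on in KYSE510 DMSO. The cancer-testis genes CTAG2 and MAGEA1 stood at 130 and 65.4 FPKM in KYSE510 at 50 nM and at 0 FPKM at 200 nM. The imprinted gene MEST stood there at 62.4 and 0.17 FPKM, against 79.1 and 127 FPKM in TE7. SPP1, which encodes the secreted protein osteopontin, went from 0.20 to 500 FPKM in KYSE510. These genes were named after their values were seen. In TE7, 70 genes were off at 200 nM by the same bounds and 27 were on, of which 3 and 2 are protein-coding.

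**Figure D1:**
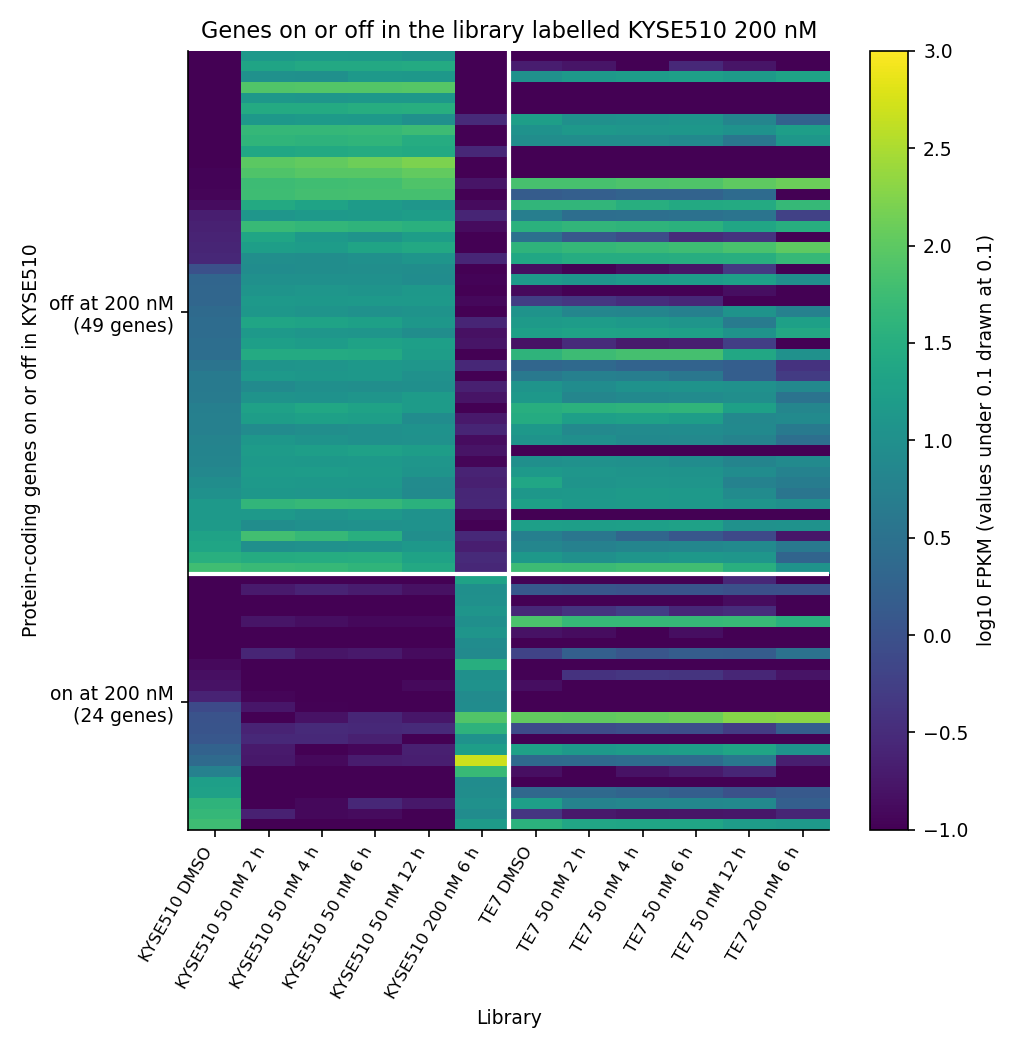
Heat map of FPKM (log10, colour) in the 12 libraries (columns) for the protein-coding genes that were off (49) or on (24) in the library labelled KYSE510 200 nM against all 4 KYSE510 libraries at 50 nM (rows). The KYSE510 200 nM column differs from its own line at 50 nM in every row, as the choice of rows requires, while KYSE510 DMSO and the TE7 libraries follow neither pattern throughout.

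Over 12298 protein-coding genes, the library labelled KYSE510 200 nM correlated at r = 0.842 with KYSE510 at 50 nM and 6 h. It correlated at 0.793 to 0.819 with the TE7 libraries at 50 nM. The KYSE510 library at 50 nM and 6 h correlated at r = 0.849 with the library labelled KYSE510 DMSO, below its 0.857 to 0.878 with the TE7 libraries at 50 nM, while that of TE7 correlated at 0.958 with its own DMSO library. The library labelled KYSE510 200 nM correlated at r = 0.797 with KYSE510 DMSO, within its range with the TE7 libraries. The DMSO, 50 nM and 200 nM libraries of KYSE510 are thus unlike one another, and which of them departs from the line was not tested. Each DMSO value below for KYSE510 rests on that DMSO library. The TE7 200 nM library correlated at r = 0.916 with its own line at 50 nM and 6 h and at 0.781 to 0.829 with KYSE510 at 50 nM. These are descriptions across genes that share libraries. The TE7 200 nM library also differed from its line in another way. In it and in all 6 KYSE510 libraries, 170 genes lay under 0.3 FPKM that stood at or above 1 FPKM in the 5 other TE7 libraries, and 10 of these are protein-coding. Another 42 did the opposite, 3 of them protein-coding. The sources used here do not state whether this library was quantified like the other TE7 libraries. Transcripts of mitochondrial DNA made up 18.9% of the FPKM in TE7 at 50 nM and 0.0434% at 200 nM, against 0.0135% and 0.143% in KYSE510. They were left out of every test and count below. Nuclear FPKM was used as deposited in the main fit, so any part of this shift in the nuclear values was not removed. Counts after scaling to equal nuclear sums are given at the end. Dose and these differences between libraries cannot be told apart, so the counts over all genes are given with each 6 h library left out. Counts of gene groups are given in many cases where 1 library of 200 nM moves them by over 1.5 times. Not every such shift is given, and shifts in small counts of higher genes are mostly left out. All 12 squamous markers reached 1 FPKM in all 4 libraries, with sums of 5587 and 2516 FPKM in KYSE510 at 50 and 200 nM and of 3646 and 2703 FPKM in TE7. None of the 3 endothelial markers in the files reached 1 FPKM. Of 6 leukocyte markers only the macrophage-associated CD68 did, at 1.85 to 14.6 FPKM, and the fibroblast markers summed to 3.60 to 11.3 FPKM, with COL1A1 at 8.54 FPKM and DCN at 2.64 FPKM at most. The fibroblast collagen gene COL3A1 stood at 0.0389 and 4.21 FPKM in KYSE510 at 50 and 200 nM and at 0.694 and 0.268 FPKM in TE7.

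Far more genes were lower than higher at 200 nM. Of 15595 nuclear genes tested, 3418 (21.9%) were lower and 461 (2.96%) higher at an adjusted p under 0.05. The test was limma on log2(FPKM + 1), paired by line, with Benjamini-Hochberg adjustment over all tested genes. FPKM is relative to each library's own total, so a fall of all RNA per cell would not show, and fewer cells and less RNA per cell cannot be told apart. The median gene was 0.46 lower on this log2 scale, with -0.45 in KYSE510 and -0.40 in TE7. Rescaling by median-of-ratios, which centres the typical gene near 0 (median -0.01), gave 1369 lower genes (8.78%) and 1388 higher (8.9%). All 1369 are among the 3418, all 461 are among the 1388, and 0 genes switched direction. A fall below is therefore read against a median of -0.46, and the counts of each gene group are given after that rescaling too. The share of lower genes also differs by class of gene. It was 26.4% over protein-coding genes, and 36.3% in the 25% of genes with the highest level at 50 nM for 2 and 4 h. The gene groups below were not matched for level.

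**Figure D2:**
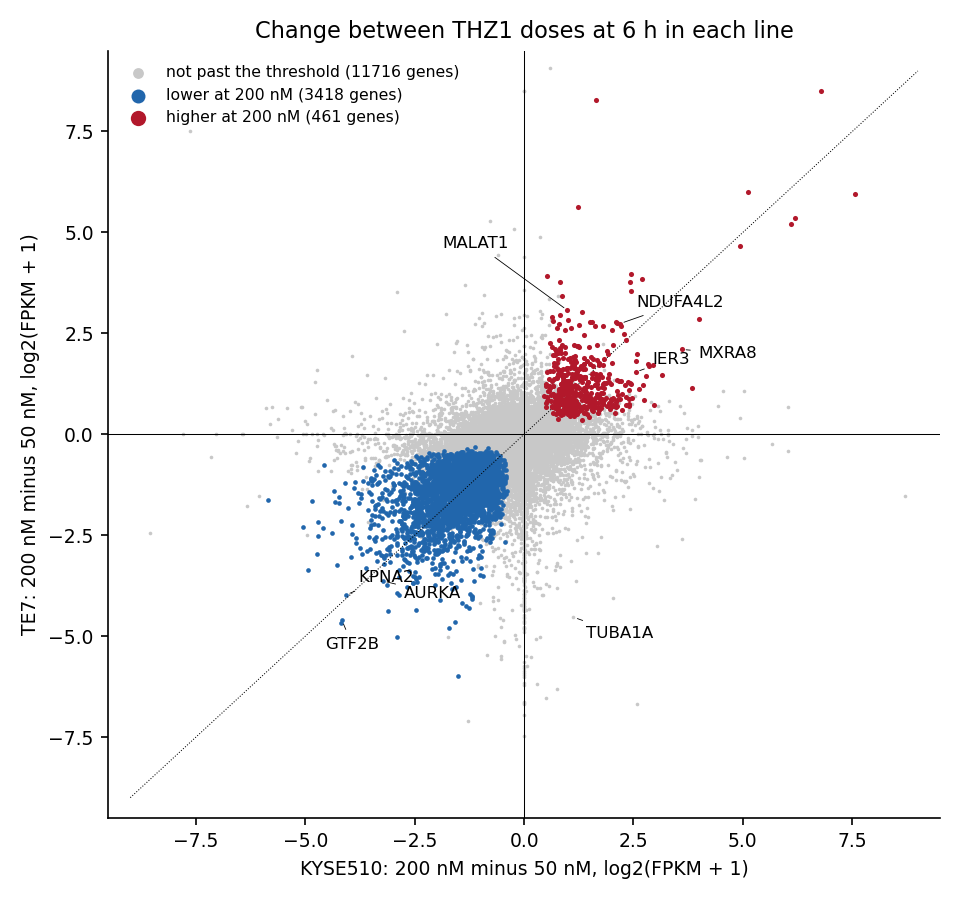
Change of each of 15595 tested genes from 50 nM to 200 nM in KYSE510 (horizontal) and TE7 (vertical), each 1 library minus 1 library on log2(FPKM + 1); blue and red mark genes past the threshold and the dotted line marks equal change. The 3418 lower and 461 higher genes lie on the same side of 0 in both lines, which the test on their mean change favours. TUBA1A is an example of a gene on opposite sides.

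Each called gene moved in the same direction in both lines. The test sets the mean change of the lines against their spread, so a gene with opposite changes could hardly pass. Over all 15595 tested genes, called or not, 2050 fell by at least 1 log2 unit in both lines and 296 by at least 2. By the same bounds 189 and 21 rose. Most of the lower genes are protein-coding (3242 of 3418), against 242 of the 461 higher genes. A further 4429 genes had opposite signs in the lines, 124 of them by at least 1 log2 unit each way.

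The number of calls depended on single libraries. With only the TE7 library at 200 nM the fit gave 3771 lower and 623 higher genes, and with only the KYSE510 library 4261 and 1054. Of the 3418 lower genes, 2241 passed either way, as did 239 of the 461 higher genes. Leaving out the 50 nM 6 h library of KYSE510 left 841 lower and 50 higher genes, and leaving out that of TE7 left 1096 and 57. Without the KYSE510 or TE7 library at 50 nM 2 h, 296 genes were higher, and without those at 4 h 267 and 264. A fit without the cell-line block gave 1261 lower and 86 higher genes. The 4 libraries alone gave 0 calls at 1 residual degree of freedom, with 3370 genes at an unadjusted p under 0.05. Of the 136 genes named below with a fitted change, 119 passed the threshold and 82 of these passed with each of the 12 libraries left out in turn. The calls lost that way are named in each paragraph. The gene groups shrank likewise without a 50 nM 6 h library. Without that of KYSE510 or of TE7, lower genes numbered 11 and 10 in G2/M and mitosis (23 with both), 11 and 10 in DNA replication (25), 10 and 9 in ribosome making (21), 6 and 9 in Mediator and BET (18), 3 and 4 in SR, hnRNP and splicing kinases (17), 2 and 2 in the proteasome (14) and 18 and 17 in mitochondrial ribosomal proteins (37). Most other groups lost calls in the same fits, several of them all.

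The largest falls that both lines shared included a general transcription factor, a nuclear import receptor and a mitotic kinase. GTF2B (ENSG00000137947; hg19 chromosome 1, 89318615 to 89357627) stood at 35.6 FPKM in KYSE510 and 34.7 FPKM in TE7 at 50 nM, and at 1.05 and 0.462 FPKM at 200 nM. Its change was -4.38 ± 0.21 (limma standard error; adjusted p = 0.00023). DMSO lay at 17.4 and 19.9 FPKM, so one dose lies above DMSO and the other below. KPNA2 stood at 323 and 207 FPKM at 50 nM and at 18.3 and 12.2 FPKM at 200 nM (-4.02 ± 0.30, adjusted p = 0.00052). AURKA, the Aurora A kinase of the spindle poles, stood at 87.5 FPKM in DMSO, 31.9 FPKM at 50 nM and 2.52 FPKM at 200 nM in KYSE510. In TE7 its values were 119, 31.4 and 1.62 FPKM (200 nM against 50 nM -3.43 ± 0.30, adjusted p = 0.00061). All of these kept their call after median-of-ratios rescaling. They were picked as the largest falls shared by both lines, so the gap between the doses follows from that choice.

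The other genes with the largest shared falls have mixed roles. The connexin gene GJB2 stood at 9.91 and 107 FPKM at 50 nM and at 0.24 and 7.18 FPKM at 200 nM. GPRC5A, an orphan G protein-coupled receptor gene, went from 46.5 to 0.547 FPKM and from 113 to 10.1 FPKM. NET1, which encodes an exchange factor for the GTPase RhoA, went from 53.2 to 5.25 FPKM and from 91.2 to 3.41 FPKM. The alpha-tubulin gene TUBA4A changed by -3.20 ± 0.38 with nearly equal values in both lines. N4BP1, which encodes an RNA-cutting protein of innate immunity, changed by -3.25 ± 0.23. The ubiquitin ligase gene RNF139 changed by -3.12 ± 0.24. PIGY, of glycolipid anchor synthesis, and the glucuronidation gene UGT1A7 were also selected. Their counting is uncertain, since PIGY overlaps another gene and UGT1A7 shares exons with its gene family. PIGY stood at 17.3 and 94.7 FPKM at 50 nM and at 0 and 2.73 FPKM at 200 nM. UGT1A7 (-3.76 ± 1.13, adjusted p = 0.045) did not pass after rescaling (adjusted p = 0.07) and lost its call without any of 10 of the 12 libraries (adjusted p up to 0.251).

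Among the largest rises, several are small or repeated RNAs whose reads cannot be placed with certainty. The U6 gene copy RNU6-25P was listed at 0 in both lines in DMSO and at 50 nM, and at 109 and 360 FPKM at 200 nM. The 5S rRNA gene RNA5S9 (67.8 and 36.0 FPKM at 200 nM) and the pseudogene SPTLC1P2 (29.5 and 24.6 FPKM) were likewise listed at 0 in DMSO and at 50 nM. Each, like RNU6-25P, passed the filter of 1 FPKM in 2 libraries only through the 200 nM libraries. Such a gene could only rise, so its call as higher is no support for an effect of dose. RNA5-8SP2, a 5.8S rRNA pseudogene, stood at 3.23 and 0 FPKM at 50 nM and at 146 and 63.6 FPKM at 200 nM. The nuclear copies of mitochondrial genes MTND4P12 (+3.09 ± 0.38) and MTATP6P1 (+2.38 ± 0.21) rose beside the shift in mitochondrial share given above, and the part of that shift in their rise was not tested. Nor was the part of the gene set on which the TE7 200 nM library parted from its line.

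Of the 461 higher genes 242 are protein-coding. HIST3H2BB, a histone H2B gene, stood at 0.107 and 0.457 FPKM at 50 nM and at 6.14 and 19.8 FPKM at 200 nM (+3.26 ± 0.42, adjusted p = 0.0019). NDUFA4L2, a hypoxia-linked relative of a respiratory chain subunit, stood at 3.56 and 1.22 FPKM at 50 nM and at 19.9 and 13.9 FPKM at 200 nM (+2.47 ± 0.39). FAM166A rose by 2.44 ± 0.30, C21orf58 by 2.29 ± 0.29 and MXRA8, a cell-surface gene, by 2.86 ± 0.52. C21orf58 stood at 5.90 and 12.7 FPKM in DMSO, 1.59 and 2.69 FPKM at 50 nM and 14.6 and 13.6 FPKM at 200 nM. Its values at 200 nM are thus near or above those in DMSO. The following were found after the values were seen, by keeping the naming rule but only protein-coding genes. EME2 went from 4.44 to 16.8 FPKM and from 2.60 to 10.9 FPKM (+1.72 ± 0.26). CPT1B, a carnitine palmitoyltransferase gene that a readthrough gene overlaps, so that its counting is uncertain, went from 5.87 to 20.9 FPKM and from 3.95 to 16.7 FPKM (+1.75 ± 0.24). CPNE7 (+1.76 ± 0.37) and the channel gene HCN3 (+2.33 ± 0.43) were also higher. Median-of-ratios rescaling raises values at 200 nM against those at 50 nM in both lines, so a higher gene could hardly fail it. All rises named here passed after median-of-ratios rescaling, but MXRA8, CPNE7 and HCN3 lost their call without either 50 nM 6 h library (adjusted p up to 0.108).

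**Figure D3:**
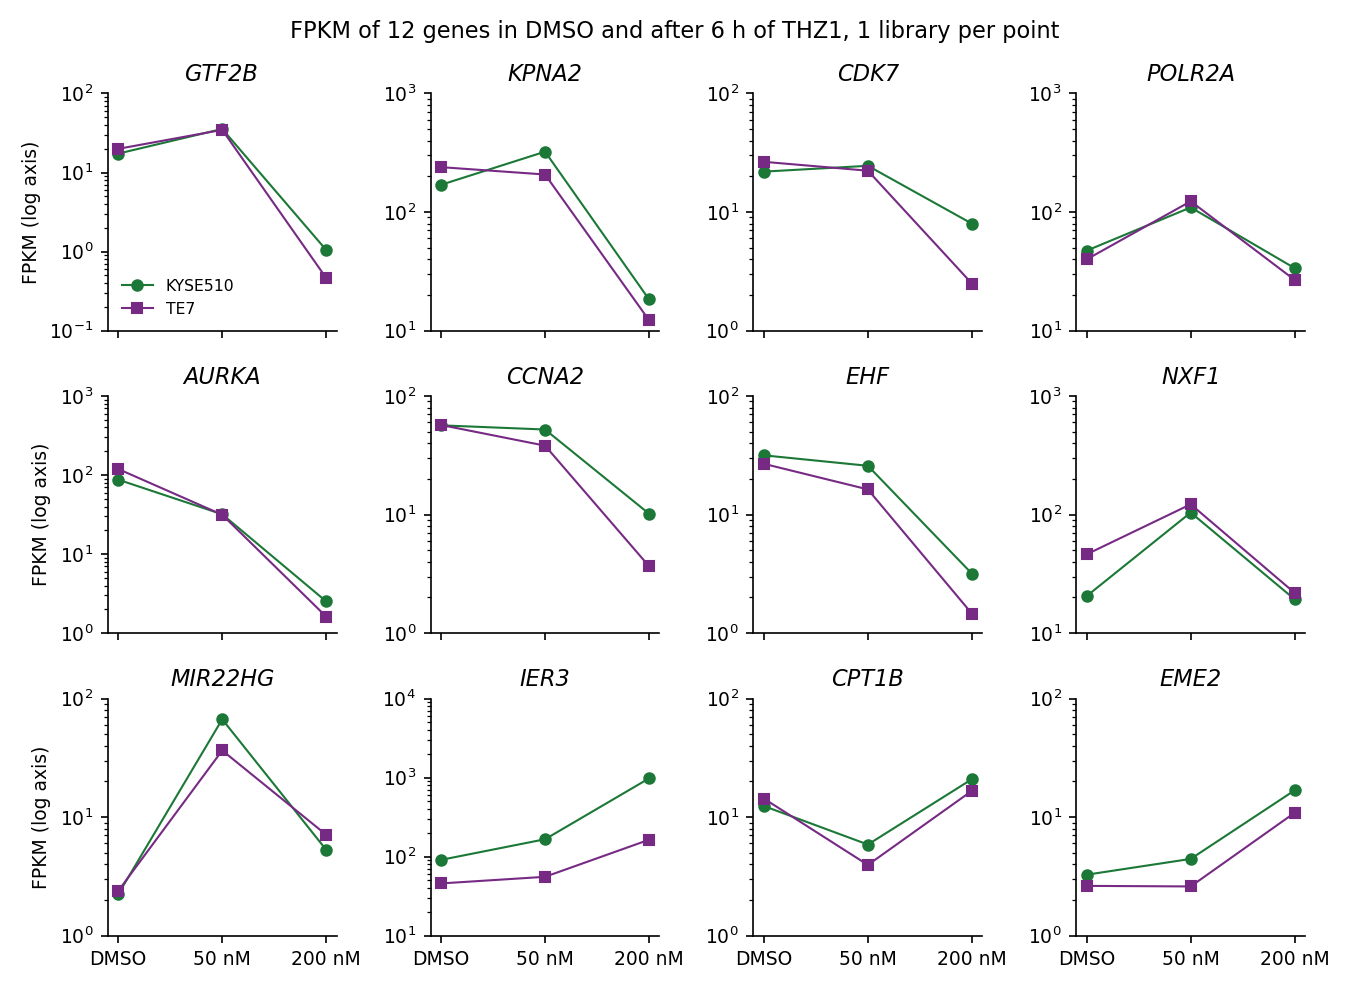
FPKM on a log axis of 12 genes in DMSO, at 50 nM for 6 h and at 200 nM for 6 h, 1 library per point, with KYSE510 as circles and TE7 as squares. The 200 nM points lie below the 50 nM points in both lines for the first 9 genes and above them for IER3, CPT1B and EME2. GTF2B, POLR2A, NXF1 and MIR22HG are highest at 50 nM in both lines.

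Among transcription kinases, the target gene itself was lower. CDK7 stood at 24.6 FPKM in KYSE510 and 22.3 FPKM in TE7 at 50 nM, near 21.9 and 26.5 FPKM in DMSO. At 200 nM it stood at 7.98 and 2.49 FPKM (-2.12 ± 0.36, adjusted p = 0.0055; rescaled adjusted p = 0.026). CDK12 was at -0.67 ± 0.22 (adjusted p = 0.064) and CDK13 at -0.39 ± 0.25 (adjusted p = 0.28), and rescaling put them at -0.07 and 0.15. The cyclin genes CCNT1 (-1.70 ± 0.27), a partner of CDK9, and CCNK (-1.32 ± 0.24), a partner of CDK12, fell, CCNK only without rescaling. Of the 14 genes of the CDK7 complex and transcription kinases, 4 fell and 0 rose, with a median of -0.62, against 21.9% and -0.46 over all genes, and 2 fell and 1 rose after rescaling. CDK7 and CCNK lost their calls without either 50 nM 6 h library (adjusted p up to 0.0535 and 0.0699).

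Factors that act with RNA polymerase II on chromatin and in elongation were lower in 43.5% (7SK and elongation) and 56.2% (Mediator and BET) of genes. The share was 21.9% over all genes, 26.4% over protein-coding genes and 36.3% in the 25% of genes with the highest level. The part of level in these gaps was not tested. Of 23 genes of the 7SK complex and elongation, 10 fell and 0 rose, and 5 fell after rescaling (median -1.02). The PAF complex genes LEO1 (-2.64 ± 0.30) and PAF1 (25.9 to 4.82 FPKM in KYSE510, 20.6 to 5.26 FPKM in TE7) led them, with LEO1 at 13.8 and 17.9 FPKM at 50 nM and 2.19 and 1.26 FPKM at 200 nM. HEXIM1, an inhibitor of CDK9, stood at 19.2 and 24.2 FPKM in KYSE510 at 50 and 200 nM and at 28.9 and 11.5 FPKM in TE7 (-0.47 ± 0.46, adjusted p = 0.47). Mediator and BET genes, which link enhancers to polymerase, fell in 18 of 32, or 9 after rescaling (median -1.12). MED6 went from 35.5 to 7.21 FPKM and from 47.7 to 9.72 FPKM (-2.17 ± 0.19), and the kinase-module gene MED13 changed by -1.95 ± 0.20. MED1 (-1.17 ± 0.32) passed only without rescaling and lost its call without any of 7 libraries (adjusted p up to 0.174).

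POLR2A stood at 47.2 and 39.9 FPKM in DMSO, 109 and 123 FPKM at 50 nM and 33.6 and 26.7 FPKM at 200 nM (-1.92 ± 0.20, adjusted p = 0.00098). As deposited it was thus highest at 50 nM and below DMSO at 200 nM in both lines. The order against DMSO rests on the scaling. The median-of-ratios factors were 1.13 and 0.645 for KYSE510 DMSO and 200 nM, and 1.40 and 0.730 for TE7. With each library divided by its factor, POLR2A at 200 nM lay above DMSO in both lines, and 50 nM stayed highest. Of the 12 polymerase subunit genes, 4 fell, but after rescaling 1 fell and 3 rose, and the median was -0.45. POLR2D (-1.59 ± 0.31) and POLR2B (-1.28 ± 0.25) passed only without rescaling. POLR2D lost its call without either 50 nM 6 h library and POLR2B without that of TE7 (adjusted p up to 0.0776 and 0.0902). General transcription factors fell in 11 of 30 (36.7%), or 3 after rescaling (10%, near the 8.78% of all genes). Their median was -0.69, and GTF2B stands far below it. TAF11 changed by -1.87 ± 0.30 and TBP, the TATA-binding protein gene, by -0.93 ± 0.24, which did not pass after rescaling (adjusted p = 0.31). Without the KYSE510 library at 50 nM 6 h TAF11 missed the threshold (adjusted p = 0.056), and TBP missed it without any of 5 libraries (adjusted p up to 0.167).

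Of the study's 5 super-enhancer genes, chosen by its own aim, 1 passed the threshold (20% lower, against 21.9% of all genes). PAK4, a kinase gene, stood at 25.9 and 20.1 FPKM at 50 nM and at 4.97 and 7.74 FPKM at 200 nM (-1.72 ± 0.28, adjusted p = 0.0049; rescaled adjusted p = 0.021). Its call was lost without the KYSE510 50 nM 6 h library (adjusted p = 0.0637). RUNX1 stood at -0.14 ± 0.52, DNAJB1 at -1.35 ± 0.47 (adjusted p = 0.07), SREBF2 at 0.37 ± 0.44 and YAP1 at -0.61 ± 0.36, none past the threshold. RUNX1 and YAP1 change sign with rescaling. MYC stood at 147 and 95.8 FPKM at 50 nM and at 73.2 and 8.76 FPKM at 200 nM (-2.15 ± 0.52, adjusted p = 0.02; rescaled adjusted p = 0.091). Its call was lost without either TE7 library of 6 h (adjusted p up to 0.155).

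Transcription factors of the squamous lineage fell in 12 of 19, or 5 after rescaling, with 0 rising (median -1.32). These shares are 63.2% and 26.3%, against 21.9% and 8.78% of all genes. EHF, an ETS factor of epithelium, stood at 25.8 and 16.3 FPKM at 50 nM and at 3.18 and 1.46 FPKM at 200 nM (-2.75 ± 0.21, adjusted p = 0.00053). TFAP2C, an AP-2 factor, stood at 0.22 and 1.27 FPKM at 200 nM against 13.1 and 10.3 FPKM. TP63, the basal squamous regulator, went from 50.8 to 16.6 FPKM and from 21.2 to 10.2 FPKM (-1.27 ± 0.30), and passed neither after rescaling (adjusted p = 0.14) nor without the KYSE510 50 nM 6 h library (adjusted p = 0.169).

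Keratin and desmosome genes fell in 9 of 25 (36%, against 21.9% of all genes). After rescaling 1 fell (4%, under the 8.78% of all genes). The list median reached -1.48 in KYSE510 but -0.59 in TE7, and with the KYSE510 library alone at 200 nM 15 fell, against 7 with TE7 alone. KRT5 stood at 1615 and 1302 FPKM at 50 nM and at 1011 and 946 FPKM at 200 nM, and did not pass (-0.57 ± 0.19, adjusted p = 0.068). KRT14, named after its values were seen, stood at 514 and 201 FPKM at 50 nM and at 2.62 and 137 FPKM at 200 nM. The desmoplakin gene DSP changed by -1.26 ± 0.19, KRT18 by -1.36 ± 0.27, JUP by -1.95 ± 0.48, SFN, a 14-3-3 gene of epithelium, by -2.05 ± 0.36 and the desmocollin gene DSC2 by -2.63 ± 0.54. DSP, KRT18 and JUP passed only without rescaling. KRT18, JUP and DSC2 lost their calls without either 50 nM 6 h library and SFN without that of KYSE510 (adjusted p up to 0.151).

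Genes of cell division made up one of the lists with the lowest medians. G2/M and mitosis genes fell in 23 of 34 (67.6%), or 13 after rescaling (38.2%), against 21.9% and 8.78% of all genes. Under either scaling 0 rose, and the median as deposited was -1.40. CCNA2, the cyclin A gene, stood at 56.6 and 57.0 FPKM in DMSO, 52.2 and 38.1 FPKM at 50 nM and 10.2 and 3.67 FPKM at 200 nM (-2.66 ± 0.30, adjusted p = 0.0012). TPX2, an activator of Aurora A, changed by -1.80 ± 0.22 and the spindle checkpoint kinase gene TTK by -2.43 ± 0.31. CCNB1 went from 91.2 to 21.5 FPKM and from 64.4 to 3.92 FPKM. Its call was lost without the TE7 50 nM 6 h library (adjusted p = 0.0515). Tubulin genes fell in 5 of 11 (45.5%) under both scalings, with the lowest fitted median of any list with at least 9 tested genes (-1.84). That rank rests on TE7, where the tubulin median was -2.39. In KYSE510 it was -0.88, above the -1.18 of G2/M genes there. TUBB4B stood at 1059 and 902 FPKM at 50 nM and at 166 and 100.5 FPKM at 200 nM, and TUBB changed by -1.84 ± 0.23. Reads of such near-identical genes may be split between copies.

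DNA replication genes fell in 25 of 44 (56.8%), or 15 after rescaling (34.1%), against 21.9% and 8.78% of all genes. The median as deposited was -1.12, and 1 rose after rescaling. The origin factors CDC6 (28.9 to 3.81 and 59.4 to 9.41 FPKM, -2.59 ± 0.19) and ORC1 (-2.91 ± 0.29) fell, as did the flap nuclease gene FEN1 (-2.89 ± 0.26). MCM2, of the replicative helicase, stood at 167 and 41.4 FPKM in KYSE510 and at 82.7 and 57.3 FPKM in TE7, and did not pass (adjusted p = 0.07). Homologous recombination and Fanconi genes, several of them long, fell in 10 of 38, close to the share over all genes. After rescaling 3 fell and 6 rose, and the median was -0.41. EXO1, an end-resecting nuclease gene (-1.86 ± 0.25), and PALB2 (-1.73 ± 0.20) were lower under both scalings. G1 cyclins fell in 2 of 13 (15.4%, against 21.9% of all genes), or 2 with 1 rising after rescaling. With TE7 alone at 200 nM 5 fell, and with KYSE510 alone 3 fell and 2 rose. CCNE1 changed by -2.25 ± 0.35, missing the threshold without the KYSE510 50 nM 6 h library (adjusted p = 0.053), while CCND1 stood at 180 and 35.7 FPKM in KYSE510 and at 67.0 and 50.9 FPKM in TE7 (adjusted p = 0.11).

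Genes for making ribosomes fell in 21 of 31 (67.7%), or 11 after rescaling (35.5%), against 21.9% and 8.78% of all genes. The median as deposited was -1.23, and 1 rose after rescaling. NOP16 stood at 65.6 and 38.9 FPKM at 50 nM and at 6.28 and 3.80 FPKM at 200 nM (-3.12 ± 0.19, adjusted p = 0.00041). The nucleostemin gene GNL3 changed by -2.73 ± 0.18, UTP15 of the small subunit processome by -2.52 ± 0.24 and the rRNA methyltransferase gene NOP2 by -2.06 ± 0.20. All 4 passed with each library left out. Genes of the ribosome itself differed from these. Of 79 cytosolic ribosomal protein genes 4 fell (5.06%), with a median of -0.18. After rescaling 20 rose and 2 fell (25.3% and 2.53%, against 8.9% and 8.78% of all genes). The count depends on the library, since 19 fell and 2 rose with TE7 alone at 200 nM, and 13 fell and 6 rose with KYSE510 alone. RPL7L1, a ribosomal protein relative that acts in ribosome assembly, changed by -1.89 ± 0.28.

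Mitochondrial ribosomal protein genes, also nuclear, fell in 37 of 73 (50.7%), or 23 after rescaling (31.5%), against 21.9% and 8.78% of all genes. The median as deposited was -0.97, and 4 rose after rescaling. MRPL44 went from 27.4 to 4.20 FPKM and from 27.5 to 2.19 FPKM (-2.80 ± 0.24), and MRPL46 changed by -2.33 ± 0.18. Nuclear genes of oxidative phosphorylation showed a smaller shift, with 12.8% lower, or 1.28% after rescaling. Of 78, 10 fell and 2 rose, and after rescaling 1 fell and 18 rose (median -0.26), with 17 falling and 6 rising in the fit with KYSE510 alone at 200 nM. The one that fell under both scalings is UQCRFS1, the Rieske protein gene of complex III, from 114 to 20.6 FPKM and from 80.6 to 20.3 FPKM (-2.17 ± 0.18). NDUFB9 of complex I went from 251 to 428 FPKM and from 302 to 457 FPKM (+0.68 ± 0.16, adjusted p = 0.018), and missed the threshold without either 50 nM 6 h library (adjusted p up to 0.166).

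Translation factors fell in 10 of 32 (31.2%, against 21.9% of all genes), with a median of -0.62 and EIF3A at -1.81 ± 0.17. After rescaling 3 fell and 2 rose (9.38% and 6.25%), near the 8.78% and 8.9% of all genes. EEF1A1, an elongation factor gene, stood at 1846 and 1568 FPKM at 50 nM and at 1208 and 1419 FPKM at 200 nM (-0.38 ± 0.23, adjusted p = 0.26). Aminoacyl-tRNA synthetase genes fell in 6 of 20, or 2 with 1 rising after rescaling, led by RARS (-2.38 ± 0.28), and in 10 with KYSE510 alone at 200 nM. The lower share of the synthetase genes was 30%, or 10% after rescaling. Proteasome genes fell in 14 of 31 (45.2%), but in 2 after rescaling (6.45%, under the 8.78% of all genes). Their median was -0.76, with PSMD12 from 89.7 to 18.9 FPKM and from 90.4 to 13.8 FPKM.

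SR protein, hnRNP and splicing kinase genes fell in 17 of 30 (56.7%), or 5 after rescaling (16.7%), against 21.9% and 8.78% of all genes. The median as deposited was -0.81, and 1 rose after rescaling. SRSF3 stood at 162 and 107 FPKM at 50 nM and at 42.9 and 14.7 FPKM at 200 nM, and the branch-site factor gene SF3B1 changed by -1.79 ± 0.21. Cleavage, polyadenylation and Integrator genes fell in 12 of 31 (38.7%) and 1 rose, or 8 (25.8%) and 1 after rescaling. CLP1 went from 14.8 to 1.35 FPKM and from 16.3 to 1.91 FPKM (-2.66 ± 0.19), and CSTF1 changed by -2.49 ± 0.22. Deadenylation, decapping and decay genes fell in 13 of 31 (41.9%) and 1 rose, or 7 (22.6%) and 1 after rescaling. The antiproliferative adaptors BTG1 (-2.59 ± 0.23) and TOB1 (-2.29 ± 0.24), which recruit deadenylase, and the exosome nuclease gene DIS3 (-2.80 ± 0.36) led them. In mRNA export 5 of 15 fell (33.3%), or 3 after rescaling (20%). NXF1, the main export receptor, stood at 20.5 and 46.2 FPKM in DMSO, 104 and 122 FPKM at 50 nM and 19.3 and 21.8 FPKM at 200 nM (-2.40 ± 0.26). ZNF622, of late ribosome assembly and the C2H2 zinc finger list, changed by -3.11 ± 0.25, whereas that list of 366 tested genes had 66 lower and 9 higher (18.0% and 2.46%), and 29 lower and 31 higher after rescaling. With KYSE510 alone at 200 nM 24 were higher.

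Immediate-early genes split by member, with 11.1% higher and 22.2% lower, against 2.96% and 21.9% of all genes. Of 27, 3 rose and 6 fell, or 4 and 3 after rescaling (median -0.39), and with KYSE510 alone at 200 nM 5 rose and 7 fell. IER3, a stress-induced survival gene, stood at 91.0 and 45.8 FPKM in DMSO, 166 and 55.6 FPKM at 50 nM and 978 and 164 FPKM at 200 nM (+2.05 ± 0.35, adjusted p = 0.0054). The AP-1 gene JUNB went from 71.6 to 217 FPKM and from 116 to 171 FPKM (+1.07 ± 0.33, adjusted p = 0.048). SRF, the serum response factor gene, changed by -1.72 ± 0.21 and SERTAD1 by -2.11 ± 0.28. JUNB lost its call without any of 9 libraries (adjusted p up to 0.276) and IER3 without the KYSE510 50 nM 6 h library (adjusted p = 0.0624).

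Of 14 AP-1 genes 4 fell and 1 rose (28.6% and 7.14%, against 21.9% and 2.96% of all genes). After rescaling 3 fell and 1 rose (21.4% and 7.14%, against 8.78% and 8.9%). FOSL1 stood at 10.2 and 41.3 FPKM in DMSO, 57.0 and 165 FPKM at 50 nM and 10.6 and 25.3 FPKM at 200 nM (-2.49 ± 0.23, adjusted p = 0.0007). FOSL2 changed by -2.22 ± 0.31 and JUND by -2.19 ± 0.31. MAPK feedback and EGF receptor ligand genes fell in 6 of 20 (30%), or 4 after rescaling (20%), with a median of -0.80. They include the phosphatase gene DUSP7 (-2.19 ± 0.21) and ERRFI1 (-2.52 ± 0.33), an inhibitor of the EGF receptor. EGFR itself stood at 96.6 and 31.3 FPKM in KYSE510 and at 40.7 and 27.9 FPKM in TE7 (adjusted p = 0.096). In the MYC network 3 of 11 fell (27.3%), or 1 with 1 rising after rescaling (9.09% each, near the shares of all genes). Among the 3 is MAX (-1.76 ± 0.23), the partner of MYC. Of 16 YAP and TEAD genes 3 fell (18.8%, against 21.9% of all genes), or 2 after rescaling and 5 with KYSE510 alone at 200 nM. They include TEAD4 (-1.55 ± 0.20) and AJUBA (-2.45 ± 0.41), which lost its call without the KYSE510 50 nM 6 h library (adjusted p = 0.0597). NF-kB genes fell in 4 of 19, or 3 after rescaling, a share of 21.1% that is near that of all genes, with RELA from 45.8 to 8.95 FPKM and from 39.8 to 10.7 FPKM (-2.02 ± 0.18) and NFKB1 at -2.06 ± 0.25.

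p53 target genes fell in 9 of 21 (42.9%), or 6 after rescaling (28.6%), against 21.9% and 8.78% of all genes. Their median was -1.18, and 0 rose. CDKN1A, the p21 inhibitor gene, went from 28.5 to 6.86 FPKM and from 14.4 to 4.27 FPKM (-1.73 ± 0.33; rescaled adjusted p = 0.05). The death receptor gene TNFRSF10B changed by -1.58 ± 0.25. PMAIP1, which encodes NOXA, changed by -1.38 ± 0.22 and passed only without rescaling. Apoptosis promoters fell in 7 of 18 (38.9%), or 1 after rescaling (5.56%, under the 8.78% of all genes). BAX was near level, at 88.1 and 94.9 FPKM in KYSE510 and at 72.4 and 76.8 FPKM in TE7 (0.09 ± 0.27). Apoptosis inhibitors fell in 1 of 11, BCL2L1 (-0.85 ± 0.21), which did not pass after rescaling, and in 2 with KYSE510 alone at 200 nM. The lower share of the apoptosis inhibitors was 9.09%, under the 21.9% of all genes. MCL1 stood at 68.6 and 42.6 FPKM in KYSE510 and at 149 and 75.3 FPKM in TE7 (adjusted p = 0.16). CDKN1A and BCL2L1 lost their calls without either 50 nM 6 h library, and PMAIP1 and TNFRSF10B without that of TE7 (adjusted p up to 0.154).

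Genes of the integrated stress and unfolded protein responses fell in 12 of 26 (46.2%), or 7 after rescaling (26.9%), against 21.9% and 8.78% of all genes. The median as deposited was -0.79, and 2 rose after rescaling. HERPUD1, of protein disposal at the endoplasmic reticulum, went from 27.4 to 2.79 FPKM and from 28.7 to 3.42 FPKM (-2.83 ± 0.31), and the response factor gene XBP1 changed by -1.88 ± 0.19. NRF2 and glutathione genes fell in 11 of 25 (44%), or 5 after rescaling (20%), with 0 rising (median -1.23). GCLC, the rate-limiting enzyme of glutathione synthesis, went from 193 to 15.1 FPKM and from 22.6 to 2.21 FPKM (-3.24 ± 0.32). SRXN1 changed by -3.02 ± 0.41 and NFE2L2, the NRF2 gene, by -2.54 ± 0.44. Of 22 heat shock chaperone genes 2 were higher and 6 lower (9.09% and 27.3%, against 2.96% and 21.9% of all genes), or 4 and 3 after rescaling. HSPA8 went from 730 to 119 FPKM and from 627 to 78.1 FPKM, and its cochaperone gene BAG3 changed by -3.02 ± 0.31. HSPA1A stood at 43.9 and 1.33 FPKM in KYSE510 and at 9.09 and 5.73 FPKM in TE7 (adjusted p = 0.092). NFE2L2 lost its call without the TE7 50 nM 6 h library (adjusted p = 0.0609).

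Hypoxia and glycolysis genes fell in 9 of 28, or 4 with 2 rising after rescaling, with 17 in the fit with KYSE510 alone at 200 nM. NDRG1, induced by hypoxia, stood at 407 and 132 FPKM in DMSO, 67.5 and 42.7 FPKM at 50 nM and 9.11 and 9.77 FPKM at 200 nM (-2.39 ± 0.40). LDHA, the lactate dehydrogenase gene, changed by -1.50 ± 0.28 and did not pass after rescaling. The lower share of the hypoxia and glycolysis list was 32.1%, or 14.3% after rescaling, against 21.9% and 8.78% of all genes. Cholesterol synthesis genes had a median of 0.01 in KYSE510 and -0.87 in TE7, and 4 of 27 fell (14.8%, against 21.9% of all genes). After rescaling 1 fell and 1 rose, and 2 fell with KYSE510 alone at 200 nM. Among the 4 is the sterol demethylase gene CYP51A1 (-1.88 ± 0.27). Interferon response genes fell in 10 of 23 (43.5%), or 4 after rescaling (17.4%), with IFIT1 at -2.56 ± 0.49 and IFI44 at -2.26 ± 0.33. Of 12 genes of the DDIT4, TXNIP and arrestin-domain list, 7 fell (58.3%), or 6 (50%) with 3 rising (25%) after rescaling. ARRDC4 changed by -2.06 ± 0.24. DDIT4, an inhibitor of mTORC1, stood at 162 and 96.4 FPKM in DMSO, 9.25 and 9.79 FPKM at 50 nM and 32.7 and 14.8 FPKM at 200 nM (1.13 ± 0.38, adjusted p = 0.065; rescaled adjusted p = 0.026). LDHA lost its call without either 50 nM 6 h library, NDRG1 without that of TE7 and IFIT1 without that of KYSE510 (adjusted p up to 0.0874).

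Clock genes fell in 6 of 15 (40%), or 3 after rescaling (20%), against 21.9% and 8.78% of all genes. NFIL3 (-2.49 ± 0.31) led them. Of 14 HUSH complex and silencing cofactor genes 6 fell, but 0 after rescaling and 3 with KYSE510 alone at 200 nM. ID genes and feedback genes of the TGF-beta and BMP pathways had medians on opposite sides of 0, at 0.50 in KYSE510 and -0.53 in TE7, with 1 of 12 past the threshold and 0 after rescaling. With TE7 alone at 200 nM 2 fell, and with KYSE510 alone 3 fell and 2 rose.

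Replication-dependent histone genes were the one list of at least 9 tested genes whose median lay above 0 in both lines as deposited. Of 21, 5 rose (23.8%) and 0 fell under both scalings, against 2.96% of all genes higher, or 8.9% after rescaling. The median was 0.79 (0.14 in KYSE510 and 1.60 in TE7). With TE7 alone at 200 nM 11 rose and 1 fell, and with KYSE510 alone 5 rose and 2 fell. Without the 50 nM 6 h library of KYSE510 or of TE7, 2 and 1 rose. HIST1H4C stood at 3.19 and 1.13 FPKM at 50 nM and at 6.35 and 28.3 FPKM at 200 nM (+2.29 ± 0.64, adjusted p = 0.034), and lost its call without any of 9 libraries (adjusted p up to 0.212). Most histone messages lack a poly(A) tail, and the libraries were made from polyadenylated RNA, so these values cover only the part of the message that such libraries capture.

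MIR22HG, the host of a microRNA, stood at 2.24 and 2.38 FPKM in DMSO, 66.8 and 36.5 FPKM at 50 nM and 5.30 and 7.09 FPKM at 200 nM (-2.82 ± 0.48). MALAT1, an abundant nuclear RNA, went from 16.3 to 33.3 FPKM and from 12.7 to 114 FPKM (+2.03 ± 0.55, adjusted p = 0.031). Of 17 small nucleolar RNA host genes, 1 rose and 4 fell (23.5%, near the 21.9% of all genes), or 2 and 1 after rescaling. SNHG6 stood at 69.2 and 114 FPKM at 50 nM and 110 and 166 FPKM at 200 nM (+0.60 ± 0.15), and SNHG15 changed by -1.47 ± 0.24. MALAT1 lost its call without any of 7 libraries and SNHG6 without any of 6 (adjusted p up to 0.193), while MIR22HG and SNHG15 missed the threshold without the KYSE510 50 nM 6 h library (adjusted p = 0.056).

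**Figure D4:**
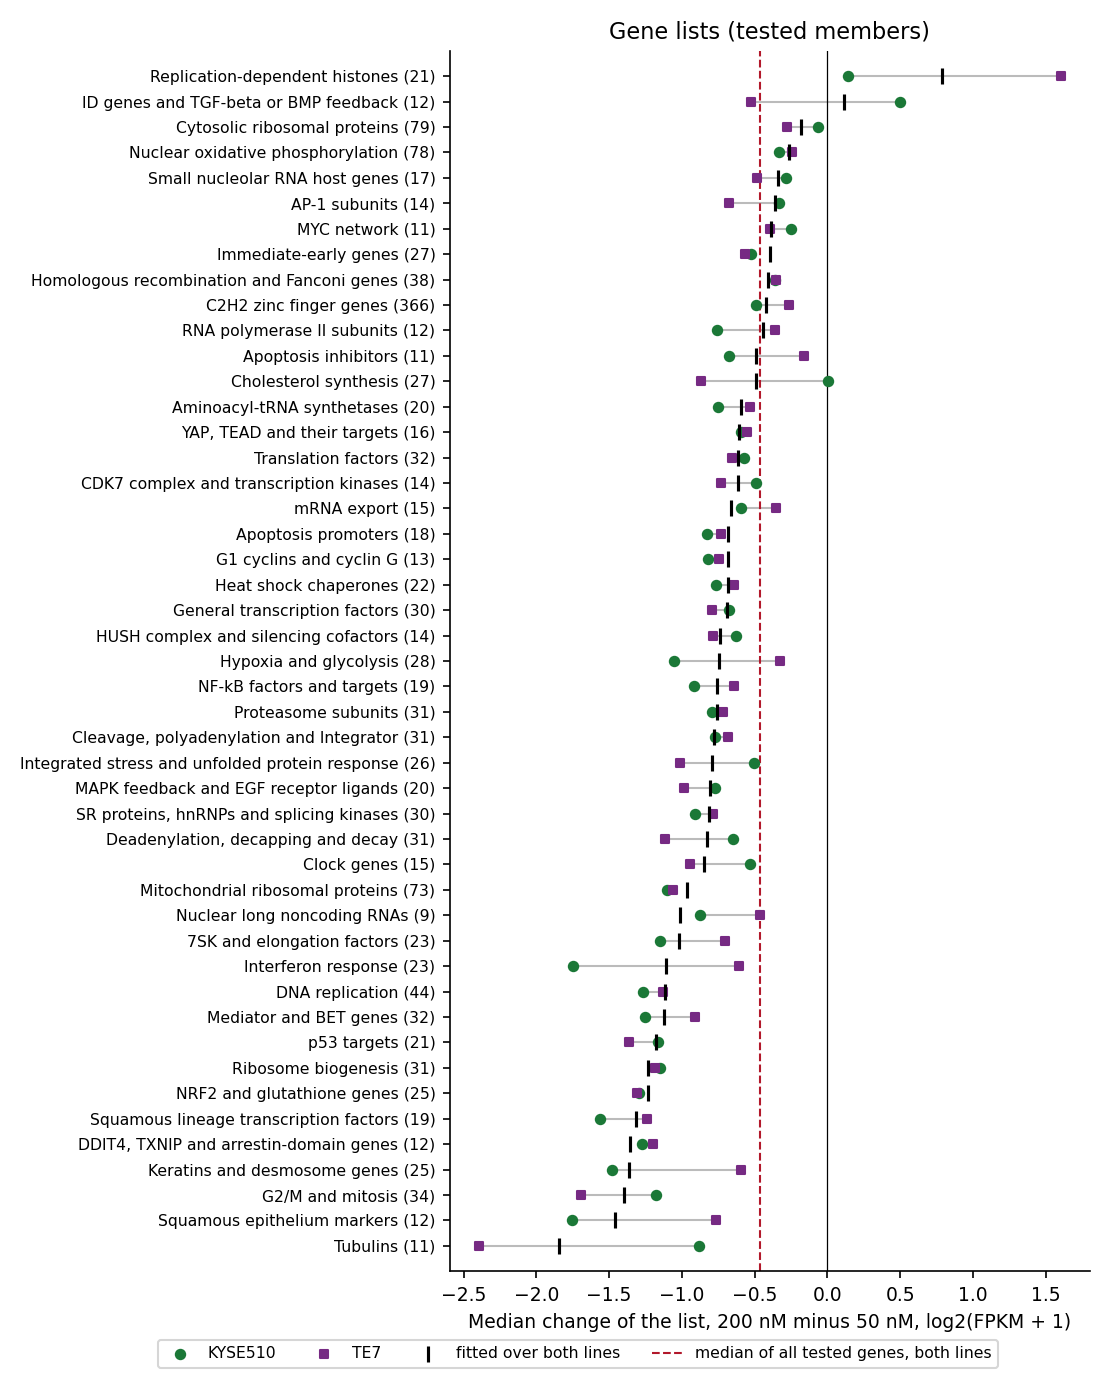
Median change of each gene list from 50 nM to 200 nM on log2(FPKM + 1), in KYSE510 (circles), in TE7 (squares) and fitted over both (bars), with the median of all tested genes (-0.46) dashed. By the fitted medians tubulins (-1.84, with -0.88 in KYSE510 and -2.39 in TE7) and G2/M genes (-1.40) lie lowest among the functional lists. Cytosolic ribosomal protein genes (-0.18) lie right of the dashed line, and replication-dependent histones (0.79) lie above 0.

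The share of genes called differed by level and by locus length. In the 25% of genes with the lowest mean FPKM at 50 nM for 2 and 4 h, which are libraries outside the comparison, 1.64% were lower and 6.64% higher. In the highest 25% of genes 36.3% were lower and 1.08% higher. Low genes have less room to fall on this scale. A gene could also pass the filter of 1 FPKM in 2 libraries through the 200 nM libraries alone, as RNU6-25P, RNA5S9 and SPTLC1P2 did. Such a gene lies in the lowest class and can only rise, so the share of higher genes there follows in part from the filter. How many genes entered that way was not counted. By locus span, 18.6% of protein-coding genes under 3 kb were lower, against 30.3% from 10 to 30 kb and 13.6% at 300 kb or more. The share of higher genes went from 5.18% under 3 kb to 0.25% at 300 kb or more, and after rescaling from 15.1% to 2.77%. Of 524 tested lincRNA genes 41 were higher and 20 lower (7.82% and 3.82%), or 75 and 7 after rescaling (14.3% and 1.34%). Of 1099 antisense genes 56 were higher and 53 lower (5.1% and 4.82%), or 116 and 23 after rescaling (10.6% and 2.09%). Over all genes the shares were 2.96% and 21.9%, or 8.9% and 8.78%. The part of level in these gaps was not tested. Without a stated strand setting, reads of an antisense gene and its partner cannot be told apart.

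**Figure D5:**
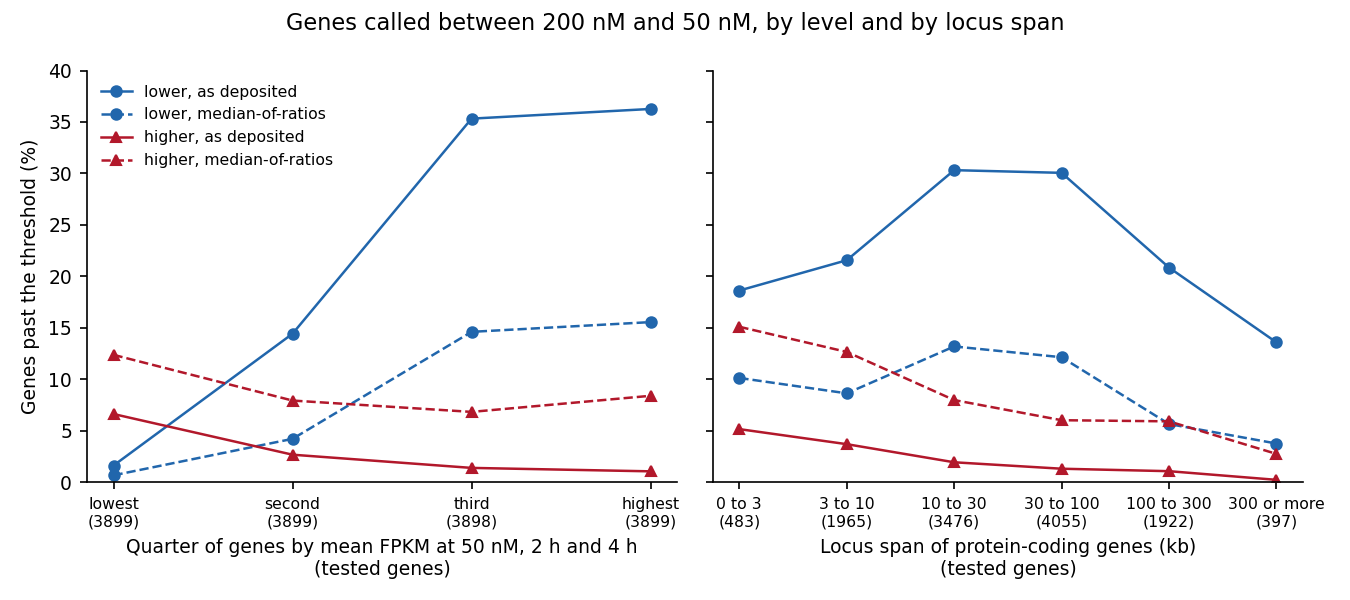
Share of tested genes past the threshold as lower (circles) or higher (triangles), by class of mean FPKM at 50 nM for 2 and 4 h and by locus span of protein-coding genes in kb, as deposited (solid) and after median-of-ratios rescaling (dashed). Lower genes are least frequent in the lowest class (1.64%) and at 300 kb or more (13.6%) as deposited, and higher genes are most frequent in the lowest FPKM class (6.64%) and, among the span classes, under 3 kb (5.18%).

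A promoter window was found for 9341 of 12281 tested protein-coding symbols. The motif CCGGAAG, the core bound by ETS factors, was in 16.2% of these windows, in 19.8% of the 2546 windows of lower genes and in 21.5% of the 1032 windows of genes lower under both scalings. It was in 13.5% of the 163 windows of higher genes. TGACTCA, the AP-1 site, was in 2.69% of all windows, 2.08% of those of lower genes and in 11 of 163 (6.75%) of those of higher genes. TATAAA was in 5.20% of all windows, 4.67% of those of lower genes and 7.98% of those of higher genes, a gap that rests on 13 windows. GAANNTTC, the core of heat shock elements, was in 4.04%, 3.69% and 6.75% in the same order, the last again 11 of 163. GGGCGG was in 68.2%, 68.7% and 63.2%, CCAAT in 35.1%, 37.0% and 35.0%, CACGTG in 9.01%, 9.47% and 18 of 163 windows and TGACGTCA in 2.93%, 3.61% and 2.45%. In windows of all RefSeq promoters of the table, CCGGAAG was in 8.82% and TGACTCA in 4.16%. These shares are descriptions of letters in a window and were not tested.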

How the data were processed

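Gene levels were analysed in the 12 libraries, of which the 4 at 6 h form the comparison. The authors deposited FPKM per gene and library, with bounds, in Cufflinks gene tables per the file headers. Polyadenylated RNA went into TruSeq libraries, per the labels. STAR, Cufflinks and hg19 are named per the submitters' processing notes without versions, and no source used here gives the strand setting or the number of fragments. A combined table with 12 per-sample columns was not used. Each table held 57755 gene identifiers, 108 of them at several loci, which were summed; 37 mitochondrial genes (symbol starting MT-) were left out. FPKM sums were 535976 and 383975 in KYSE510 at 50 and 200 nM, and 650109 and 459201 in TE7. In the median gene the 95% upper bound lay 7.76% to 10.6% above its value, which covers counting error only and is the precision these depths give.

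Values were taken as log2(FPKM + 1), which understates changes of low genes. Genes had to reach 1 FPKM in 2 or more libraries, and the 15595 that did were fitted with limma 3.58.1 in R 4.3.3. The fit used all 12 libraries for the spread, a term per condition, a cell-line block and a mean-variance trend, and left 5 residual degrees of freedom plus 2.91 from the prior. The two-sided p-values were adjusted by Benjamini-Hochberg, with a threshold of 0.05. The block holds by design, since libraries of a number share a cell line; over 15 pairs of conditions the lowest correlation of same-line deviations was 0.332. A fit that leaves out a 6 h library assumes that the lone sample of that dose varies like the other groups. Changes within a line are 1 library minus 1 library and carry no test.

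Genes named were the 12 largest rises and falls with a mean of at least 5 FPKM at 6 h and an ordinary symbol, ranked by the smaller change of the 2 lines, 9 genes of the drug and study, and up to 4 members of each of 51 lists. Some genes that this rule selects are not reported here. The members and lists were chosen with earlier results of these data known. Lists were described by counts and medians and not tested. Alternatives were other pseudocounts, filters, scalings, variance models and library sets, and no block; equal sums over protein-coding genes were added after seeing the data. Biotypes came from GENCODE 29, promoters from RefSeq (GRCh38.p14) and gene coordinates from the deposited tables (hg19).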

Additional observations from a re-analysis of the deposited data

Results flagged for a closer look

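There were 2 results that lay on opposite sides of 0 in the 2 lines by at least 0.5 log2 units each way, and the difference between the lines was not tested, since each value rests on 1 library per dose. TUBA1A, an alpha-tubulin gene, stood at 14.8 and 33.5 FPKM in KYSE510 at 50 and 200 nM, a change of 1.13 on log2(FPKM + 1). In TE7 it stood at 120 and 4.25 FPKM, a change of -4.53. In DMSO it stood at 35.9 and 73.4 FPKM. The list of ID genes and TGF-beta or BMP feedback genes had a median change of 0.50 in KYSE510 and -0.53 in TE7.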

How the results depend on the processing

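None of the named genes past the threshold changed sign under any alternative run, but the number of calls moved with scaling, block and single libraries. As deposited 461 genes were higher and 3418 lower. Equal nuclear sums gave 741 and 2021, median-of-ratios 1388 and 1369, upper quartiles 1678 and 1172, and equal sums over protein-coding genes, added after seeing the data, 575 and 1884. Without the replicate block, which pairs libraries by line, 86 were higher and 1261 lower. The 4 libraries at 6 h alone gave 0 and 0, with 1 residual degree of freedom. A mean of at least 5 FPKM gave 195 higher and 3324 lower among fewer genes tested. Leaving out 1 library at a time gave 50 to 1054 higher and 841 to 4309 lower genes, each range ending low without the KYSE510 library at 50 nM 6 h; the high ends were reached without TE7 at 200 nM and without TE7 DMSO. Both pseudocounts, no filter, the highest locus, no trend and robust variances kept both counts within 1.5 times. Of the 119 named genes past the threshold, 79 passed without the block, 105 after median-of-ratios and 103 with upper quartiles; the cause of these losses was not tested.

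The values that changed sign belong to genes not past the threshold. CDK13 stood at 0.15 by median-of-ratios and 0.24 by upper quartile, and in this order YAP1 stood at 0.0142 and 0.12, HEXIM1 at 0.15 and 0.25, KRT5 at 0.0807 and 0.19, EEF1A1 at 0.27 and 0.38 and RUNX1 at 0.47 and 0.58. CDK12 reached 0.0329 by upper quartile. RUNX1 was at 0.18 by equal nuclear sums and 0.24 by equal protein-coding sums, where EEF1A1 was at 0.0239. With 1 library left out at a time RUNX1 ranged from -0.57 (without KYSE510 at 50 nM 6 h) to 0.28 (without TE7 there), and stood at 0.17 without TE7 at 200 nM. From the fit without KYSE510 to that without TE7 at 200 nM, HEXIM1 ranged from -1.06 to 0.12, TUBA1A from -4.40 to 0.99 and SREBF2 from -0.0729 to 0.81. With no fragment totals, low genes carry no interval beyond the deposited bounds.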
